A study of Mus musculus with 8 samples.

Results

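The 10 genes described here belong to the actin cytoskeleton and were followed on arrays that set the mouse embryonic stem cell line HM-1 against the line R1. The genes were taken by symbol from a fixed list of 10: Actg1, Gsn, Tmsb4x, Tpm1, Tpm4, Pfn1, Zyx, Myl12a, Cdc42 and Rhob. All 10 were found, on 22 of the 20355 probes, among 9930 named genes of which 8726 were tested. The study held 8 cDNA arrays read in 2 colours, and by its channel labels each array carried HM-1 RNA in one channel and R1 RNA in the other. The protocols in the labels speak of organs and of a reference pooled from control animals, which does not match those channel labels, and the labels were followed here. In the untreated group (4 arrays) the cells of both lines had no drug, and in the nocodazole group (4 arrays) both lines had been given nocodazole, which depolymerises microtubules and holds cells in mitosis. Dose, time and passage were not in the labels. In the untreated group HM-1 was labelled with Cy5 on replicates 1 and 2 and with Cy3 on replicates 3 and 4. In the nocodazole group it was labelled with Cy3 on replicate 4 and with Cy5 on the others. The labels did not state that replicates were separate cultures. The p-values then cover no more than the spread among these arrays, and that spread may be technical.

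Each value is a log2 ratio between the lines on 1 array, centred on the median of that array. The sign is that of the deposited table. The labels did not say which line stood in the numerator, nor whether the arrays with HM-1 in Cy3 had already been turned to the direction of the others. So no line is called higher, and each comparison also gives the fit in which the Cy3 arrays were turned. A ratio within an array gives no level of expression, so the lines' identity as stem cells could not be checked by the level of a marker. Treated and untreated cells never shared an array. A difference between the groups is therefore a shift in how the lines compare, not an effect of the drug within a line. Fewer cells of a type and less RNA per cell cannot be told apart in such bulk samples.

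Actin monomers assemble into filaments that shape the cell cortex, carry adhesion and form the contractile ring of dividing cells. Monomer-binding proteins hold or deliver subunits, gelsolin cuts and caps filaments, tropomyosins coat them, and myosin II pulls on them. Small GTPases such as Cdc42 decide where filaments form. Many actin genes are targets of serum response factor, which binds the CArG box and whose coactivators sense free actin monomers.

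The promoters of 5 genes are printed, that of Actg1 because it holds the only CArG box found among the members. Those of Gsn, Tmsb4x, Tpm1 and Pfn1 are printed because their probes with a value on all 8 arrays had similar ratios. Each sequence is the 120 bases before the annotated start in RefSeq (GRCm38.p6), read 5′ to 3′ on the strand of the gene. Capitals mark a CArG box, GGGCGG or CCAAT on either strand. TATAAA was searched as well and was in none of the 5.
Actg1, chr11:120348496-120348615, minus strand: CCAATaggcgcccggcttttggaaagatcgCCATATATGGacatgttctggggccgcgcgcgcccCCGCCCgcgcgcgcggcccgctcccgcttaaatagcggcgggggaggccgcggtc
Gsn, its first listed start, chr2:35256239-35256358, plus strand: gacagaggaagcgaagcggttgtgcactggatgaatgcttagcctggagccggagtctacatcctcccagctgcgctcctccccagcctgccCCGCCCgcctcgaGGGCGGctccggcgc
Tmsb4x, chrX:167209219-167209338, minus strand: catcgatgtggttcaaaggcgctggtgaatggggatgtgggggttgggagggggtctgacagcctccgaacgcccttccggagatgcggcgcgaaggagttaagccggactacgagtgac
Tpm1, chr9:67049214-67049333, minus strand: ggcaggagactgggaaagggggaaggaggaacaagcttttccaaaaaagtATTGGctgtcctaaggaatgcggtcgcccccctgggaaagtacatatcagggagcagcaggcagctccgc
Pfn1, chr11:70654651-70654770, minus strand: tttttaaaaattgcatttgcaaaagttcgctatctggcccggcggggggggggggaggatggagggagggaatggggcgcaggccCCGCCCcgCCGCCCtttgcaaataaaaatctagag

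In Actg1 the CArG box lay 81 to 90 bases before the start. Over 250 upstream bases, a CArG box was in 1.47% of all 32851 promoter windows, in 1 of the 12 windows of the members, and in at least 1 window of 13 of the 118 other actin genes that had one. Those 13 included Acta1, Actc1, Myl9, Vcl and Srf itself. GGGCGG, the letters of a GC box, was in all 12 windows of the members and in 32.7% of all windows. CCAAT was in 33.8% and TATAAA in 12.4% of all windows, and among the members CCAAT was found in Actg1, Gsn, Tpm1 and Rhob and TATAAA in Cdc42 alone. These matches describe letters in a window and say nothing of binding.

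No member passed the threshold of an adjusted p of 0.05 in any comparison, and neither did any other of the 14015 features tested (limma with Benjamini-Hochberg adjustment, 0% called in each of the 4 comparisons). At an unadjusted p under 0.05 limma gave 418 negative and 469 positive features untreated, 156 and 252 with nocodazole, 340 and 442 over both conditions, and 232 and 229 in the change. The members with 1 sign on all arrays but nocodazole replicate 1 were Gsn, which cuts filaments, and Tmsb4x, which holds actin monomers. Both were negative on 7 of the 8 arrays and positive on nocodazole replicate 1. That pattern of signs, read from these same values, was found in 2 of the 10 members and in 2.6% of all features with 8 values. Leaving nocodazole replicate 1 aside, 334 features (2.83%) were negative on the other 7 arrays, and 304 of them were positive on nocodazole replicate 1. Single probes of Actg1, Tpm1 and Pfn1 had the signs of Gsn and Tmsb4x, while other probes of these 3 genes did not, and the gene means hid it.

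**Figure D1:**
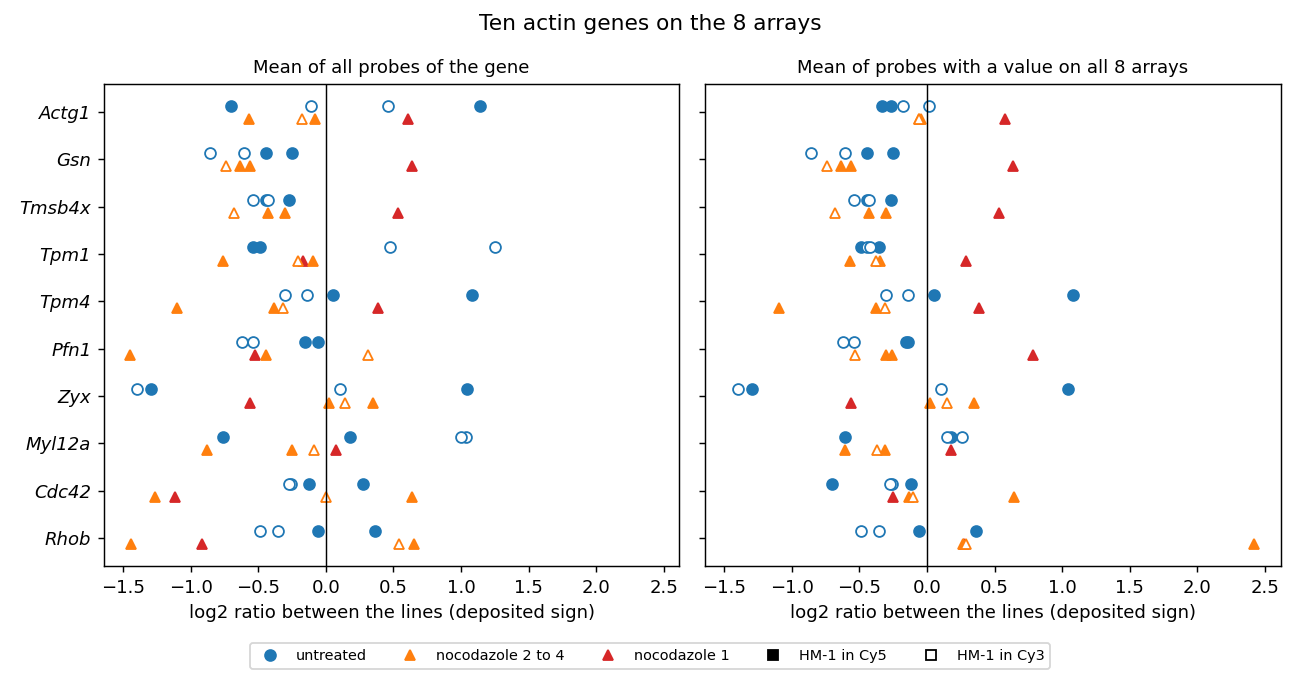
Log2 ratio between the lines (horizontal axis, deposited sign) of the 10 genes, 1 point per array. The left panel averages all probes of a gene and the right panel only probes with a value on all 8 arrays. Circles are untreated arrays, triangles nocodazole arrays, red marks nocodazole replicate 1, and open symbols are arrays with HM-1 in Cy3. Gsn and Tmsb4x lie left of 0 on all arrays but nocodazole replicate 1, and Tpm1 and Pfn1 do so in the right panel.

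Actg1 encodes cytoplasmic gamma actin, one of the ubiquitous actins, and had 4 probes. Its gene mean was 1.14, -0.70, 0.46 and -0.11 on untreated replicates 1 to 4 and 0.61, -0.077, -0.57 and -0.18 on nocodazole replicates 1 to 4. The groups overlapped, at 0.20 ± 0.79 untreated and -0.053 ± 0.49 with nocodazole (SD, n = 4 each). The mean was drawn by probe 18250, at 4.44, -1.66 and 2.53 on untreated replicates 1 to 3, with no usable value on replicate 4. Probe 9983 was steady on the untreated arrays, at -0.30, -0.31, -0.35 and -0.26, and was at 0.85, -0.66, -0.70 and -0.57 with nocodazole. It was positive on nocodazole replicate 1 alone. Probe 8648 went the other way in the nocodazole group, at -0.23, -0.35, -0.0020 and 0.28 untreated and 0.31, 0.54, 0.61 and 0.46 with nocodazole, so that its groups did not overlap. Of the 15 complete member probes it was the only 1 without overlap, against 2% of all complete probes. When each probe was fitted alone, the nocodazole ratio of probe 8648 was 0.54 with a standard error of 0.12 (limma, adjusted p = 0.994), and its change between conditions was 0.61 with a standard error of 0.16 (limma, adjusted p = 0.993). Probes 8648 and 9983 correlated at r = -0.16 over the 8 arrays, although both carry the same symbol. The probe sequences were not used here. Whether a probe also binds Actb, or another close relative of a member, was not tested.

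Tmsb4x encodes thymosin beta 4, which binds actin monomers and keeps them from assembling. Its single probe was at -0.27, -0.44, -0.54 and -0.43 on the untreated arrays and at 0.54, -0.43, -0.30 and -0.68 with nocodazole. The group values were -0.42 ± 0.11 and -0.22 ± 0.53 (SD, n = 4 each), and without nocodazole replicate 1 the second was -0.47 ± 0.19 (SD, n = 3). Outside that array the groups overlapped.

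Pfn1 encodes profilin 1, which loads monomers with ATP and hands them to growing filament ends. Probe 2958 was at -0.16, -0.14, -0.54 and -0.62 untreated and at 0.78, -0.30, -0.26 and -0.54 with nocodazole, again positive on nocodazole replicate 1 alone. Probe 6010 had 1 untreated value, 0.030, and lay at -1.82, -0.59, -2.63 and 1.16 with nocodazole. The gene mean followed the wide probe in the nocodazole group, at -0.53 ± 0.72 against -0.34 ± 0.28 untreated (SD, n = 4 each).

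Gsn encodes gelsolin, a calcium-controlled protein that severs filaments and caps their fast-growing ends. Its single probe gave -0.25, -0.44, -0.61 and -0.86 untreated and 0.64, -0.64, -0.56 and -0.74 with nocodazole. The group values were -0.54 ± 0.26 and -0.32 ± 0.64 (SD, n = 4 each). Without nocodazole replicate 1 the nocodazole value was -0.64 ± 0.088 (SD, n = 3), inside the untreated range. Both untreated arrays with HM-1 in Cy3 were lower than both with HM-1 in Cy5, and the share of all features with such a split was not counted.

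Tpm1 and Tpm4 encode tropomyosins, coiled coils that lie along the filament and control access of myosin and cofilin. Tpm1 probe 10831 was the narrowest of all member probes over 8 arrays, at -0.35, -0.49, -0.44 and -0.42 untreated and 0.29, -0.35, -0.57 and -0.37 with nocodazole. Its untreated value was -0.43 ± 0.056 (SD, n = 4). Tpm1 probe 2836 gave 2.95 and 1.36 on untreated replicates 3 and 4 and -0.73 on replicate 1, which moved the gene mean to 0.17 ± 0.86 untreated, against -0.31 ± 0.31 with nocodazole (SD, n = 4 each). Tpm4 had gene means of 0.051, 1.08, -0.14 and -0.30 untreated and 0.38, -0.38, -1.10 and -0.31 with nocodazole. Its high untreated value came from probe 3779, at 2.04 on replicate 2 where probe 20046 was at 0.12. The 2 groups of Tpm4 overlapped, at 0.17 ± 0.62 and -0.35 ± 0.61 (SD, n = 4 each).

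Zyx encodes zyxin, a LIM protein of focal adhesions that gathers at strained filaments. Its gene mean was -1.30, 1.04, 0.10 and -1.40 untreated and -0.56, 0.021, 0.35 and 0.14 with nocodazole. No order of the groups could be read from these values, since the untreated spread of 1.17 (SD, n = 4) was larger than any difference of means. Its highest and lowest gene means came from probe 8270, at 2.32 and -3.22 on untreated replicates 2 and 4, and the low value of untreated replicate 1 from probe 3444, at -2.76.

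Myl12a encodes a regulatory light chain of non-muscle myosin II, the motor of stress fibres and the contractile ring. Its gene mean over 3 probes was 0.18, -0.76, 1.04 and 0.997 untreated and 0.078, -0.25, -0.88 and -0.086 with nocodazole. The high values on untreated replicates 3 and 4 came mainly from probe 5128, at 2.59 and 2.69. Probe 4298 was also positive there, at 0.77 and 0.47, and correlated with probe 5128 at r = 0.83 over the 7 arrays with both values. Probe 1695 was at -0.25 and -0.17 on those untreated replicates and ranged from -0.91 to 0.39 over the 8 arrays.

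Cdc42 and Rhob encode small GTPases, Cdc42 acting in filopodia and polarity and Rhob on endosomes and in stress responses. Cdc42 had gene means of -0.12, 0.28, -0.26 and -0.27 untreated and -1.12, -1.26, 0.64 and 0.0020 with nocodazole. The low values of nocodazole replicates 1 and 2 came mainly from probe 4886, at -2.84 and -3.52, which had a value on 4 arrays. Cdc42 probe 2472 was at 0.23, -0.17, -0.56 and -0.86 untreated and at 0.33, -0.16, 0.093 and -0.44 with nocodazole. The arrays with HM-1 in Cy3 were its 3 lowest, and the share of all probes with such a split was not counted. Cdc42 probe 5167 did not have this split, at -0.47, -1.23, 0.047 and 0.32 untreated and -0.84, -0.105, 1.19 and 0.23 with nocodazole. It correlated with probe 2472 at r = -0.28 over the 8 arrays. Rhob gave -0.059, 0.37, -0.49 and -0.35 untreated, all from probe 4120. With nocodazole its gene mean was -0.92, 0.66, -1.44 and 0.54, while probe 4120 alone was at 0.27, 2.42, 0.27 and 0.29. The other Rhob probe, 668, had no untreated value and lay at -2.10, -1.11, -3.15 and 0.80 with nocodazole. The 2 probes of Rhob therefore gave opposite signs on nocodazole replicates 1 to 3.

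**Figure D2:**
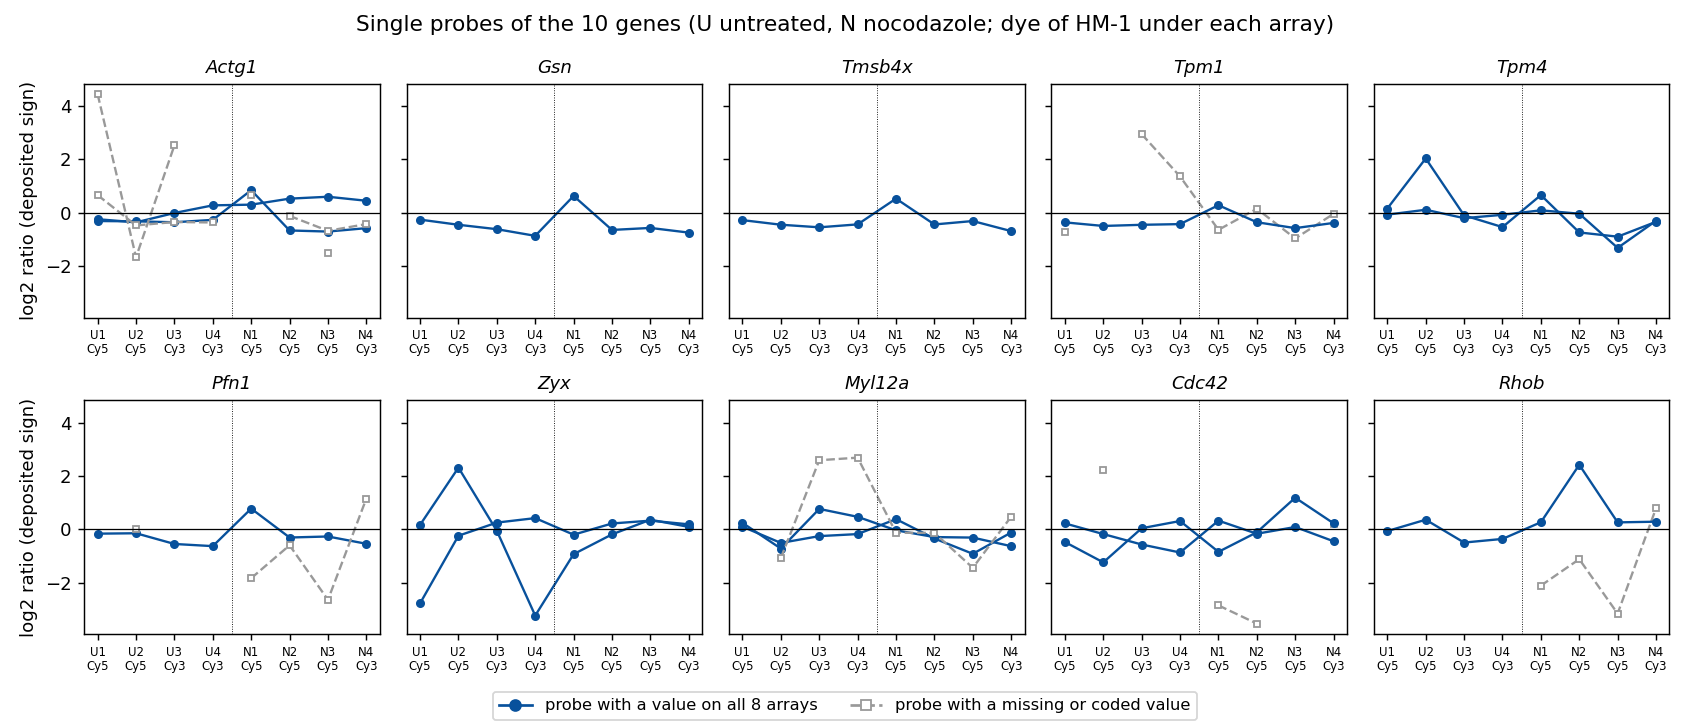
Log2 ratio (vertical axis, deposited sign) of each of the 22 probes on the 8 arrays, 1 panel per gene, with the dye of HM-1 under each array. Filled points and solid lines are the 15 probes with a value on all 8 arrays, and open squares with dashed lines are the 7 with a missing or coded value. Gsn, Tmsb4x and the complete probes of Tpm1 and Pfn1 lie below 0 on all arrays but nocodazole replicate 1. Points beyond 2 units from 0 come from incomplete probes of Actg1, Tpm1, Pfn1, Myl12a, Cdc42 and Rhob and also from complete probes of Tpm4, Zyx and Rhob.

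Probes with missing values varied more between arrays. Over all probes the median SD across arrays was 0.324 for those with 8 values and 1.17 for those with 5 to 7 values. The SD was above the first median for Gsn (0.47), Tmsb4x (0.37), Actg1 probe 9983 (0.49) and Pfn1 probe 2958 (0.44). It was below that median for Tpm1 probe 10831 (0.26). Of the missing member values, 2 were divisions by 0, coded in the deposited table as a ratio of 100000. Because of this, the 10 genes were also summarised from their 15 complete probes alone, which was chosen after seeing the values, as 1 of 5 such added settings. Each gene kept at least 1 probe. The median over the 10 genes was then -0.20, -0.39, -0.35 and -0.39 on the untreated arrays and 0.34, -0.31, -0.28 and -0.34 with nocodazole, with 8, 7, 8, 8, 2, 8, 7 and 8 genes negative. With all probes the same medians were -0.14, -0.25, -0.20 and -0.33, and -0.046, -0.31, -0.67 and -0.13. Over all features, from all probes, the negative share was lowest on nocodazole replicate 2 (6661 of 13799). It was highest on nocodazole replicate 4 (7021 of 13758). The turn of sign on nocodazole replicate 1 was thus seen in the complete probes. Among single complete probes, 5 of 15 were negative on the other 7 arrays and positive on this one, against 3.12% of all 13555 complete probes. The pattern is that of Gsn and Tmsb4x in these same values, and their probes are among the 5, so the count is a description. When the Cy3 arrays were turned, 0 of 15 had these signs, against 0.539% of complete probes. The sign on the other 7 arrays alone was shared by 3.39% of complete probes, and the negative sign on all 4 untreated arrays, which the same 5 member probes had, by 7.82%. These 5 were the Gsn and Tmsb4x probes, Actg1 probe 9983, Tpm1 probe 10831 and Pfn1 probe 2958. Over the whole series 460 complete probes were negative on those 7 arrays, and 423 of them were positive on nocodazole replicate 1. The turn on that array was therefore not particular to the members.

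The fitted ratio of a group gives both dye labels equal weight, so in the nocodazole group, where 1 array of 4 had HM-1 in Cy3, it differs from the plain mean. In untreated cells it was negative for 6 of 10 members, where 50.1% of all features were negative. The median over the members was -0.11. Gsn was the only member at an unadjusted p under 0.05 with a negative value, against 2.98% of features (none was positive at that level, against 3.35%), at -0.54 with a standard error of 0.22 (limma, adjusted p = 0.776). Tmsb4x followed at -0.42 with a standard error of 0.18 (limma, adjusted p = 0.787). The 3 members Gsn, Tmsb4x and Pfn1 were negative on all 4 untreated arrays, a pattern that 7.22% of features had, and none was positive on all 4 (6.76% of features). With complete probes 9 of 10 members were negative (52.6% of features), and Gsn, Tmsb4x and Tpm1 had an unadjusted p under 0.05 (3.62% of features, adjusted p from 0.72 to 0.744 by limma). With the Cy3 arrays turned, 8 of 10 members were positive (49.1% of features) and the median was 0.18, Gsn being at 0.19 and Tpm1 at -0.69. In that fit Tpm1 and Myl12a (-0.65) were negative at an unadjusted p under 0.05, against 7.36% of features. Their adjusted p was 0.341 and 0.440 by limma. No member was positive at that level (3.11% of features).

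With nocodazole all 10 members had a negative fitted ratio, where 51.1% of features were negative, and the median was -0.28. None had an unadjusted p under 0.05 (background 1.11% negative and 1.80% positive). The fitted values ran from -0.47 (Pfn1, standard error 0.29) to -0.063 (Zyx, standard error 0.45), and each was within 2 standard errors of 0. Leaving out 1 array at a time gave -1.04 to -0.21 for Pfn1, -0.51 to -0.13 for Tmsb4x, -0.69 to -0.31 for Gsn, -0.76 to -0.20 for Tpm4 and -0.75 to -0.18 for Cdc42. The ranges of Actg1, Tpm1, Zyx, Myl12a and Rhob crossed 0, reaching 0.084, 0.35, 0.12, 0.30 and 0.082. Without nocodazole replicate 1, 9 members were negative and Zyx was at 0.12, while Gsn was at -0.69 with a standard error of 0.11 and Tmsb4x at -0.51 with a standard error of 0.10, for which the lowest adjusted p by limma was 0.539. By gene means only Tpm1 was negative on all 4 nocodazole arrays (4.19% of features) and no member was positive on all 4 (6.11% of features). Neither Tpm1 probe was negative on all 4, as probe 10831 was at 0.29 on replicate 1 and probe 2836 at 0.16 on replicate 2. On nocodazole replicates 2 to 4, 6 members were negative (13.8% of features), and 5 of these, all but Tpm1, were positive on replicate 1 (9.70% of features). With complete probes 7 members were negative (52.5% of features) and none was called, while 1 unnamed feature was (0.00867% called). Actg1, Cdc42 and Rhob were then positive, at 0.11, 0.038 and 0.66. With the Cy3 arrays turned 7 of 10 members were negative (51.1% of features), Gsn and Tmsb4x being at 0.30 and 0.32. Pfn1 was then at -0.53 with a standard error of 0.19 (limma, adjusted p = 0.893). It was the only member at an unadjusted p under 0.05, against 3.35% of features in this direction.

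Over both conditions 7 of 10 members were negative (51.2% of features) with a median of -0.21. Gsn at -0.49 (standard error 0.16) and Tmsb4x at -0.36 (standard error 0.13) had an unadjusted p under 0.05, against 2.43% of features in this direction, and no member was positive at that level (3.15% of features). Both had an adjusted p of 0.896 by limma. Pfn1 was at -0.41 with a standard error of 0.20 (limma, adjusted p = 0.897). With complete probes 9 of 10 members were negative (53.7% of features). Tpm1 was then at -0.35 with a standard error of 0.10 and Pfn1 at -0.29 with a standard error of 0.13, both at an adjusted p of 0.842 by limma, and Gsn, Tmsb4x and Tpm1 were past an unadjusted p of 0.05 (2.87% of features). Only Rhob was positive, at 0.26, a value that rested on 2.42 on nocodazole replicate 2.

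Nocodazole replicate 1 set much of the spread of Gsn and Tmsb4x, but not that of the gene means of Pfn1 or Rhob. In the nocodazole group these means had an SD of 0.88 and 1.18 without it (n = 3) against 0.72 and 1.05 with it (n = 4). From complete probes alone the SD of Pfn1 was 0.15 without that array and 0.59 with it, and that of Rhob 1.24 and 1.07. Leaving nocodazole replicate 1 out, also after the values were seen, with complete probes gave Gsn -0.62 with a standard error of 0.068 (limma, adjusted p = 0.0585). This was the smallest adjusted p of any member in any setting tried. Tmsb4x was at -0.46 (adjusted p = 0.0844), Pfn1 at -0.40 (adjusted p = 0.0927) and Tpm1 at -0.43 (adjusted p = 0.0951) in the same limma fit. None passed, while 12 other features did (0.104% of 11532), among them the endoderm marker Dab2 and the keratin Krt8. With the Cy3 arrays turned and all 8 arrays kept, the complete-probe values over both conditions were 0.24 for Gsn, 0.19 for Tmsb4x, 0.063 for Tpm1 and 0.28 for Pfn1, 9 of 10 members were positive (52.1% of features) and the median was 0.12. With all probes and the Cy3 arrays turned, 5 members were negative (54.1% of features) and 5 positive. Tpm1 (-0.44) and Myl12a (-0.48) were then negative at an unadjusted p under 0.05, against 6.78% of features. Their adjusted p was 0.394 and 0.447 by limma. The shared sign of Gsn, Tmsb4x, Tpm1 and Pfn1 therefore depended on how the Cy3 arrays are read.

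**Figure D3:**
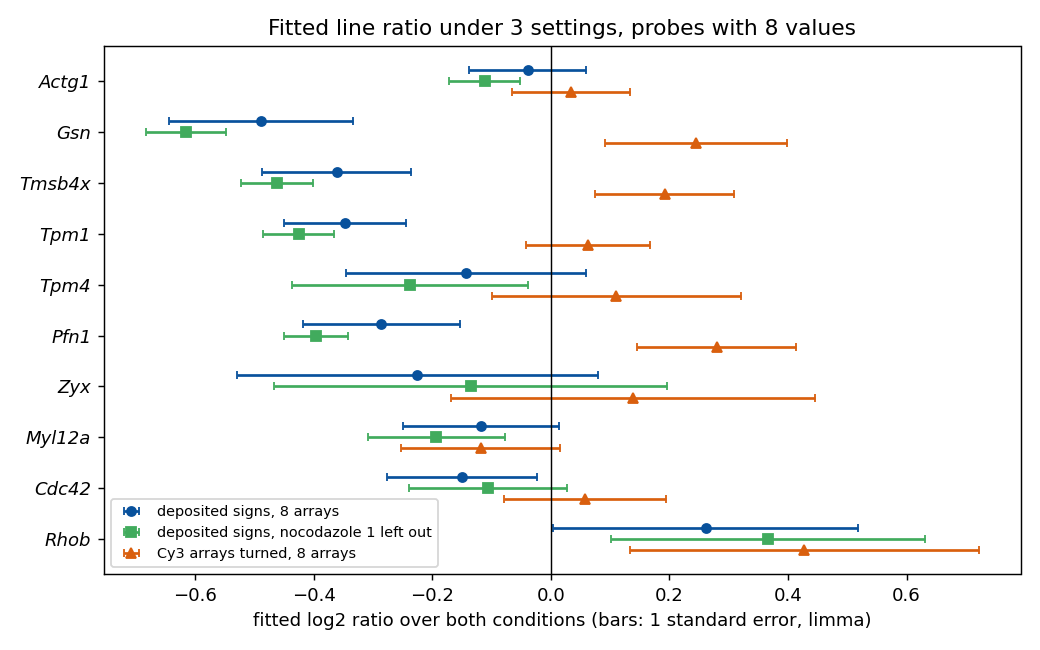
Fitted log2 ratio over both conditions (horizontal axis) of the 10 genes from probes with 8 values, with bars of 1 standard error from limma. Blue circles keep the deposited signs on 8 arrays, green squares leave out nocodazole replicate 1, and orange triangles show the fit with the Cy3 arrays turned. Gsn moves from -0.49 to -0.62 without that array and to 0.24 with the turned signs.

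The change of the line ratio, nocodazole minus untreated, was negative for 7 of 10 members (50.9% of features) with a median of -0.20. No member had an unadjusted p under 0.05 (background 1.66% negative and 1.63% positive). The value farthest from 0 was that of Tpm4, at -0.63 with a standard error of 0.41 (limma, adjusted p = 0.997). With complete probes 2 of 10 members, Tpm4 and Myl12a, were negative (50.1% of features) and the median was 0.16. With the Cy3 arrays turned 6 members were negative (50% of features), and Pfn1 was at -0.77 with a standard error of 0.25 (limma, adjusted p = 0.925). In that fit Pfn1 was the only member at an unadjusted p under 0.05, against 1.41% of features in this direction. The standard errors of the change ran from 0.26 for Tmsb4x to 0.62 for Zyx, so a p that missed the threshold does not show that the ratio stayed the same.

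The members did not follow each other as a group. Over the 45 pairs of gene means, Pearson's r across the 8 arrays lay between -0.68 and 0.94 with a median of -0.026. With complete probes it lay between -0.89 and 0.98 with a median of 0.11. Gsn, Tmsb4x, Tpm1 and Pfn1, picked after their values were seen, correlated at 0.86 to 0.98 in their 6 pairs, the highest being Gsn with Pfn1. Without nocodazole replicate 1 these correlations were -0.25 to 0.86 with a median of 0.28, so the likeness rested mainly on that array. The points share arrays, dyes and the centring, and the correlations are descriptions.

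The genes nearest to the mean pattern of the 10 members were found by Pearson's r over 8 arrays among 7478 genes. They were Tdrd12 and Acap3 at 0.98, Lrig1 and Washc5 at 0.96 and Synpo2l at 0.95. Lrig1 reached -2.94 on nocodazole replicate 3, the array with the widest spread. With complete probes the nearest of 7329 genes were R3hdm4 at 0.97, Adam19 and Sesn2 at 0.96, Senp3 at 0.95 and Gnai2 at 0.94. No gene was on both lists.

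Of 140 other actin genes listed by role, 84 were tested and 0 passed in each comparison. Negative ratios were found in 53 of 84 untreated (50.1% of all features), 55 with nocodazole (51.1%) and 53 over both conditions (51.2%), with medians of -0.088, -0.077 and -0.083, against -0.00050, -0.0045 and -0.0052 over all features. In the change, 41 of 84 were negative (50.9% of all features). Once the Cy3 arrays were turned, 38 of 84 were negative untreated (50.9% of all features), 48 with nocodazole (51.1%), 40 over both conditions (54.1%) and 48 in the change (50%), with a median over both conditions of 0.0097. At an unadjusted p under 0.05 over both conditions 6 were negative (2.43% of all features) and 2 positive (3.15%). With turned signs these were 7 (6.78%) and 0 (3.67%). Beside Actg1, 4 further actins were tested and all 4 had negative fitted ratios untreated and with nocodazole, while 3 of the 4 were positive in each with the Cy3 arrays turned. Actc1, the cardiac actin, was at -0.21, -0.37, -0.29 and -0.49 untreated and 0.76, -0.45, -0.60 and -0.51 with nocodazole. Actg2, the enteric smooth muscle actin, was at -0.042, -0.011, -0.43 and -0.44, and 0.54, -0.52, -0.52 and -0.50. Both were positive on nocodazole replicate 1 alone. Acta2, the vascular smooth muscle actin, was positive on untreated replicate 1 as well, at 0.35, -0.38, -0.30 and -1.04 untreated and 0.31, -0.051, -0.61 and -0.47 with nocodazole. Actb, the other cytoplasmic actin, ranged from -3.39 to 2.21 with no value on that array.

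By role, the median ratio over both conditions was -0.061 for 14 genes of monomer binding, nucleation and elongation, of which 8 were negative. It was -0.066 for 5 genes of severing and capping, 3 of them negative, and -0.084 for 16 side-binding and crosslinking proteins, 11 of them negative. For 10 genes of myosin and its control it was -0.13 with 8 negative, and for 15 focal adhesion and LIM proteins -0.027 with 9 negative. After turning the Cy3 arrays these medians were 0.049, -0.037, -0.018, 0.14 and -0.017, with 5, 3, 8, 2 and 10 negative. None of these groups held a gene that passed. On nocodazole replicate 1 the 84 genes had a median of 0.15, with 27 of 83 values negative. On replicates 2 to 4 the medians were -0.18, -0.22 and -0.024, with 65 of 83, 64 of 82 and 47 of 83 negative. Over all features the negative values on nocodazole replicates 1 to 4 were 6665 of 13803, 6661 of 13799, 6504 of 13330 and 7021 of 13758.

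Marker lists also differed between these arrays. The median of 17 tested of 24 endoderm markers was -0.67, -0.59, -0.16 and -0.53 on the untreated arrays and 0.68, -0.80, -0.64 and -0.64 with nocodazole, with 14, 12, 10, 11, 4, 16, 13 and 12 negative. Over all features the negative share per array lay between 6661 of 13799 and 7021 of 13758. For 9 tested of 19 naive pluripotency markers the median was 0.26, 0.20, 0.024 and 0.34, then -0.15, 0.077, 0.030 and 0.17. For 18 tested of 20 feeder fibroblast markers it was -0.28, -0.063, -0.15 and -0.12, then 0.028, -0.21, -0.54 and -0.061. The medians of the endoderm list and of the complete probes of the members had the same sign on all 8 arrays. The fibroblast list and the 84 other actin genes had those signs too, so the match was not particular to endoderm markers. The part of these cell types in the members' ratios was not tested.

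**Figure D4:**
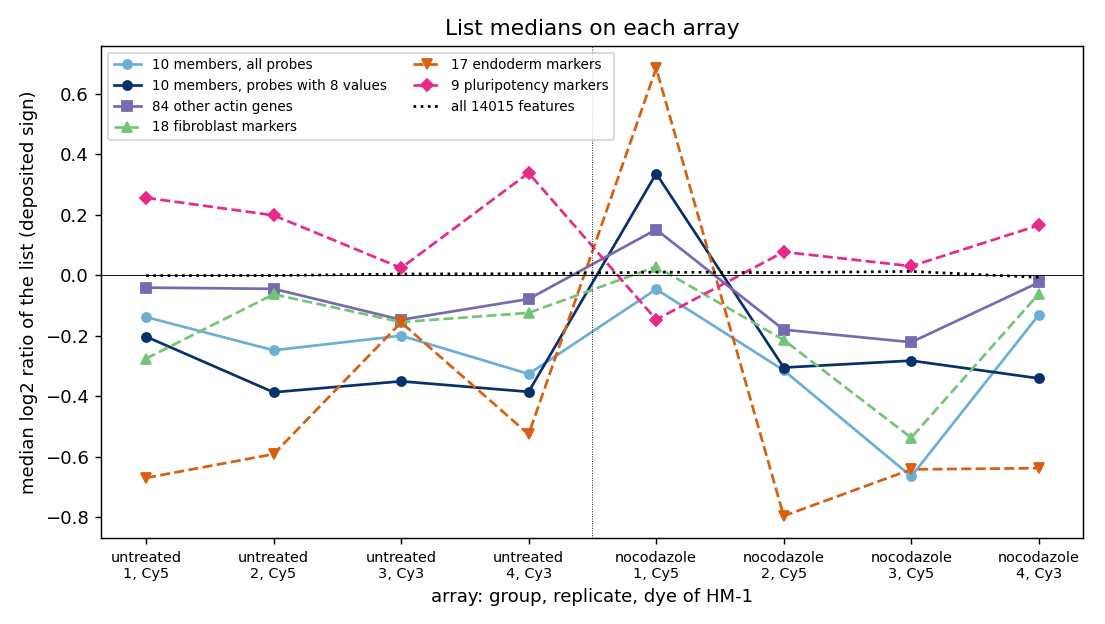
Median log2 ratio of each gene list (vertical axis, deposited sign) on the 8 arrays, named by group, replicate and dye of HM-1. Lines are the members from all probes and from complete probes, 84 other actin genes, 3 marker lists and all features. Endoderm markers are at 0.68 and complete member probes at 0.34 on nocodazole replicate 1, while pluripotency markers are at -0.15 there.

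Over the series, arrays held between 17759 and 19342 usable values, and the SD of the log2 ratios was 1.28 on nocodazole replicate 3 against 0.784 to 0.909 on the other 7 arrays. No intensities were used, so the brightness behind each ratio is unknown. Between 11.03% and 19.4% of an array's values matched the quotient of 2 whole numbers no larger than 10, within 0.0015 log2 units, against 3.67% to 4.88% after a shift of the offset. Among the 22 member probes, 2 had such values on 3 or more arrays. The Tmsb4x probe and Rhob probe 668 had them on 2 arrays. The number of arrays limits the precision of every value given.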

How the data were processed

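The values came from the authors' deposited table, with 1 log2 ratio between the lines per probe and array. The log2 scale was inferred from the numbers themselves, and how the ratios were corrected and normalized is not stated in the labels. By the channel labels 37.5% of the arrays were swapped, which differs from the design text. Divisions by 0, coded as a ratio of 100000, were set to missing, and each array was centred on its median. Probes of 1 symbol were averaged, unnamed probes stayed single, and a feature with values on at least 3 arrays of each group was tested. The test was limma 3.58.1 in R 4.3.3 (lmFit and eBayes, statmod 1.5.0) on all 8 arrays with a dye term, two-sided, with Benjamini-Hochberg adjustment and a threshold of 0.05; the script was tested on simulated data. Alternatives covered signs, dye term, replicate block, centring, scaling, coded values, array weights, missing values, probes and each array left out. The rule for named genes was all 10 members, the other actin genes by role, and the 5 genes nearest to the members' mean pattern. The result of 1 further role group is not reported here. The members and lists were chosen with earlier results of these data known. Same-numbered replicates of the groups correlated at -0.051 to 0.14 in their deviations from the group means, and the main fit had no replicate block. With no other pairs of arrays set beside them, these values do not settle whether the numbers pair the arrays. HM-1 also had a different dye on replicate 3 of each group.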

Additional observations from a re-analysis of the deposited data

Results flagged for a closer look

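In 5 of 53 groups of 4 arrays, 1 array stood apart from the others by Dixon's criterion, which chance gives in about 1 in 20 groups. Gsn was at 0.64 on nocodazole replicate 1, and Actg1 probe 9983 was at 0.85 on the same array. Tpm1 was at -0.76 on nocodazole replicate 3. Actg1 probe 12885 was at 0.67 on untreated replicate 1. Rhob probe 4120 was at 2.42 on nocodazole replicate 2.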

How the results depend on the processing

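No member passed the threshold in any setting, with the lowest adjusted p at 0.0585 by limma. Signs were less stable: of 556 member values refitted with all arrays kept or under an added setting, 115 changed sign, and of 320 with 1 array left out, 32 did. Without centring, and with all 8 arrays required, 0 of 40 changed sign. Where a value changed, the cause was not tested. Probes called dim were those with whole-number quotients on more than 1 array. They could not be weighed by signal, as no intensities were used. The 5 settings on complete probes, dim probes and the median of probes were chosen after seeing the data.

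Counts of features past the threshold were 0 except 1 with nocodazole (all 8 arrays required, and complete probes) and 12 over both conditions (complete probes without nocodazole replicate 1). The members' untreated median was 0.18 with the Cy3 arrays turned, -0.22 with coded values kept, -0.24 with single probes, -0.35 with complete probes with or without nocodazole replicate 1, and 0.13 with complete probes and turned signs. With those last settings it was 0.18 with nocodazole, 0.12 over both conditions and 0.16 in the change. The median change was 0.11 with single probes and 0.16 with complete probes.

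Signs changed as follows, with the new value in each case. With the Cy3 arrays turned they changed untreated for Gsn (0.19), Tmsb4x (0.064), Tpm1 (-0.69), Pfn1 (0.24), Zyx (0.26), Myl12a (-0.65), Cdc42 (0.17) and Rhob (0.29). The same setting turned the nocodazole ratio of Gsn (0.30), Tmsb4x (0.32) and Zyx (0.018). Over both conditions it turned Gsn (0.24), Tmsb4x (0.19), Tpm1 (-0.44), Tpm4 (0.11), Zyx (0.14) and Myl12a (-0.48), and in the change Tpm1 (0.49), Zyx (-0.24) and Myl12a (0.36).

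With complete probes the untreated sign changed for Actg1 (-0.19), Tpm1 (-0.43) and Myl12a (-0.0053), and the nocodazole sign for Actg1 (0.11), Cdc42 (0.038) and Rhob (0.66). Over both conditions it changed for Actg1 (-0.039), Tpm1 (-0.35), Myl12a (-0.12) and Rhob (0.26), and in the change for Actg1 (0.30), Tpm1 (0.16), Pfn1 (0.16), Cdc42 (0.38) and Rhob (0.79). Leaving out nocodazole replicate 1 as well gave the same untreated values, and with nocodazole Zyx (0.12), Cdc42 (0.13) and Rhob (0.87). It gave Actg1 (-0.11), Tpm1 (-0.43), Myl12a (-0.19) and Rhob (0.37) over both conditions, and Actg1 (0.16), Gsn (-0.15), Tmsb4x (-0.086), Cdc42 (0.46) and Rhob (0.9995) in the change.

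With complete probes and the Cy3 arrays turned, the untreated sign changed for Actg1 (-0.11), Gsn (0.19), Tmsb4x (0.064), Pfn1 (0.22), Zyx (0.26), Myl12a (-0.21) and Rhob (0.29). The nocodazole sign changed for Actg1 (0.18), Gsn (0.30), Tmsb4x (0.32), Tpm1 (0.12), Pfn1 (0.34), Zyx (0.018), Cdc42 (0.19) and Rhob (0.57). Over both conditions the sign changed for Gsn (0.24), Tmsb4x (0.19), Tpm4 (0.11), Pfn1 (0.28), Zyx (0.14), Myl12a (-0.12), Cdc42 (0.058) and Rhob (0.43). In the change it did for Actg1 (0.29), Tpm1 (0.12), Pfn1 (0.13), Zyx (-0.24), Myl12a (0.19), Cdc42 (0.26) and Rhob (0.28).

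With each probe fitted alone, and a gene taken at the median of its probes, the sign changed for Actg1 untreated (-0.12) and for Cdc42 (0.038) and Rhob (0.66) with nocodazole. Over both conditions it changed for Actg1 (-0.28), Myl12a (-0.020) and Rhob (0.26), and in the change for Pfn1 (0.16), Cdc42 (0.38) and Rhob (0.79). The median of a gene's probes turned Actg1 untreated (-0.16) and over both conditions (-0.17), and Cdc42 in the change (0.19). Leaving out dim probes, which removed Tmsb4x, turned Tpm1 untreated (-0.43), Zyx (0.41) and Rhob (0.66) with nocodazole, Tpm1 (-0.35) and Rhob (0.26) over both conditions, and Tpm1 (0.16) and Rhob (0.79) in the change. Coded values kept turned Actg1 over both conditions (-0.66) and Rhob in the change (1.33). Array weights turned Actg1 (0.0012) and Myl12a (0.0095) with nocodazole and Pfn1 (0.00055) and Rhob (0.13) in the change. Without the dye term Tpm1 over both conditions was -0.067, and with scaled arrays Rhob in the change was 0.014.

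With the replicate block, 0 of 12840 features were called in each comparison by limma, as without it. At an unadjusted p under 0.05 there were 421 negative and 563 positive untreated, 211 and 367 with nocodazole, 271 and 527 over both conditions, and 260 and 267 in the change. The block turned the nocodazole ratio of Actg1 (0.21), Tpm1 (0.20), Zyx (0.033) and Myl12a (0.14), and the change of Actg1 (0.0074), Tpm1 (0.028), Pfn1 (0.060) and Rhob (0.11).

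With each array left out in turn, the untreated median of the members ranged from -0.30 to -0.011, Actg1 from -0.17 to 0.59, Tpm1 from -0.095 to 0.29, Tpm4 from -0.11 to 0.31, Zyx from -0.93 to 0.030 and Rhob from -0.37 to 0.043. With nocodazole Actg1 ranged from -0.27 to 0.084, Tpm1 from -0.22 to 0.35, Zyx from -0.32 to 0.12, Myl12a from -0.24 to 0.30 and Rhob from -0.85 to 0.082. Over both conditions Actg1 ranged from -0.071 to 0.20, Tpm1 from -0.13 to 0.26 and Zyx from -0.42 to 0.015. In the change Actg1 ranged from -0.78 to 0.20, Gsn from -0.15 to 0.23, Tmsb4x from -0.086 to 0.29, Tpm1 from -0.43 to 0.17, Pfn1 from -0.70 to 0.13, Zyx from -0.21 to 1.03 and Rhob from -0.72 to 0.22.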
